A study of Mus musculus with 2 samples.

Results

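Fabp4, Fabp5, Lpl, Cd36, Plin2, Lipa, Apoe, Abca1 and Abcg1 are 9 genes of lipid uptake, storage and efflux, picked by symbol from the 32285 genes of the count tables, and each symbol matched a single row. Their unique molecular identifiers (UMIs, 1 per captured transcript) were counted in single cells from the stromal vascular fraction of mouse epididymal fat (eWAT), what is left of digested fat once mature adipocytes are removed. The Camk2d-CKO library (knockout below) came from mice with Camk2d, which encodes the delta chain of the kinase CaMKII, deleted conditionally in myeloid cells, and the wild-type library from mice without that deletion. Both groups ate a high-fat diet for 10 weeks, and each genotype is 1 library. Genotype therefore cannot be told apart from any other difference between the libraries. The labels give neither the Cre driver, the deleted exons, the strain, the age nor the number of animals in a library, and a description field of both samples names embryonic hindlimb where all other fields name fat. A single library for each genotype allows no test between genotypes, so differences are given as values, with 95% intervals for counting error alone.

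In obese fat, capillaries, progenitors and macrophages share the handling of fatty acids and cholesterol. Lipoprotein lipase frees fatty acids from circulating triglyceride, CD36 and the fatty acid binding proteins take them in and carry them, and perilipin 2 coats the droplet in which they are stored. Lysosomal acid lipase frees cholesterol from esters inside the cell, and ABCA1, ABCG1 and apolipoprotein E carry it out again, a route that liver X receptors are known to switch on in macrophages loaded with sterol.

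The knockout library held 10631 barcodes with a median of 7385 UMIs and the wild-type library 15555 with a median of 3094, and 48 barcodes occurred in both. After filtering, cells were assigned to gates by the share of their UMIs from marker genes, none of which is among the 9. The macrophage gate held 1148 knockout and 1978 wild-type cells (median 11468 and 7001 UMIs), the endothelial gate 91 and 92 (5382 and 4540 UMIs), and the progenitor gate 4306 and 3861 (10062 and 5925 UMIs). The 6 check genes of each gate, not used to build it, were highest in their own gate in both libraries. The T and B gates served as a background level (median 5079 against 3821 UMIs in T cells, 5495 against 5011 in B cells). It holds free RNA, transcripts of other cells caught in a droplet, and any transcripts of the lymphocytes' own, which cannot be told apart. Camk2d stood at 25.4 CPM (a gene's UMIs in a gate, scaled to the same total in every gate and library) in knockout and 45.6 CPM in wild-type macrophages, at 91.0 and 98.6 CPM in progenitors and at 36.5 and 47.7 CPM in endothelial cells. Since the deleted exons are not given and 3' tags can lie outside them, they are no check of the deletion.

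The genes have the following positions in GENCODE M21 on GRCm38 (mm10). Lpl (ENSMUSG00000015568) lies at chr8:68880491-68907448 on the plus strand and Cd36 (ENSMUSG00000002944) at chr5:17781690-17888801 on the minus strand. Fabp4 (ENSMUSG00000062515, chr3:10204088-10208576, minus) and Fabp5 (ENSMUSG00000027533, chr3:10012548-10016607, plus) lie on the same chromosome, with starts 191540 bases apart. Plin2 (ENSMUSG00000028494, chr4:86648386-86670060) and Abca1 (ENSMUSG00000015243, chr4:53030787-53159895) are both on the minus strand. Lipa (ENSMUSG00000024781, chr19:34492318-34527474) and Apoe (ENSMUSG00000002985, chr7:19696109-19699188) are on the minus strand and Abcg1 (ENSMUSG00000024030, chr17:31057675-31117988) is on the plus strand. No annotated gene overlaps the first 8, and only an rRNA gene that the count table does not hold overlaps Abcg1. Fabp5 has a processed pseudogene, and reads of such a copy cannot always be told from its own.

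Which cells held these transcripts was asked first. All 9 genes stood at least 2-fold above the higher of the T and B gates in macrophages of both libraries, a mark that 15.7% of all genes past the low-count limit (a mean of 10 CPM and 30 UMIs in the higher library) reached. In endothelial cells 6 did (Fabp4, Fabp5, Lpl, Cd36, Plin2 and Apoe), against 25.6% of all genes, and in progenitors 2 did (Apoe and Abca1), against 23.6%. At this 2-fold mark macrophages thus held all 9 genes above lymphocytes in both libraries. Endothelial cells held the uptake and binding genes with Plin2 and Apoe, and the progenitor gate as a whole only Apoe and Abca1. In wild-type endothelial cells Lpl, Plin2 and Apoe passed narrowly, at 2.27-fold, 2.36-fold and 2.06-fold. Free RNA gave an estimated 31.3%, 24.0% and 30.3% of those levels. Endothelial Abcg1 missed the mark but stood 12.6-fold above progenitors in the knockout library and 3.93-fold in the wild type.

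**Figure D1:**
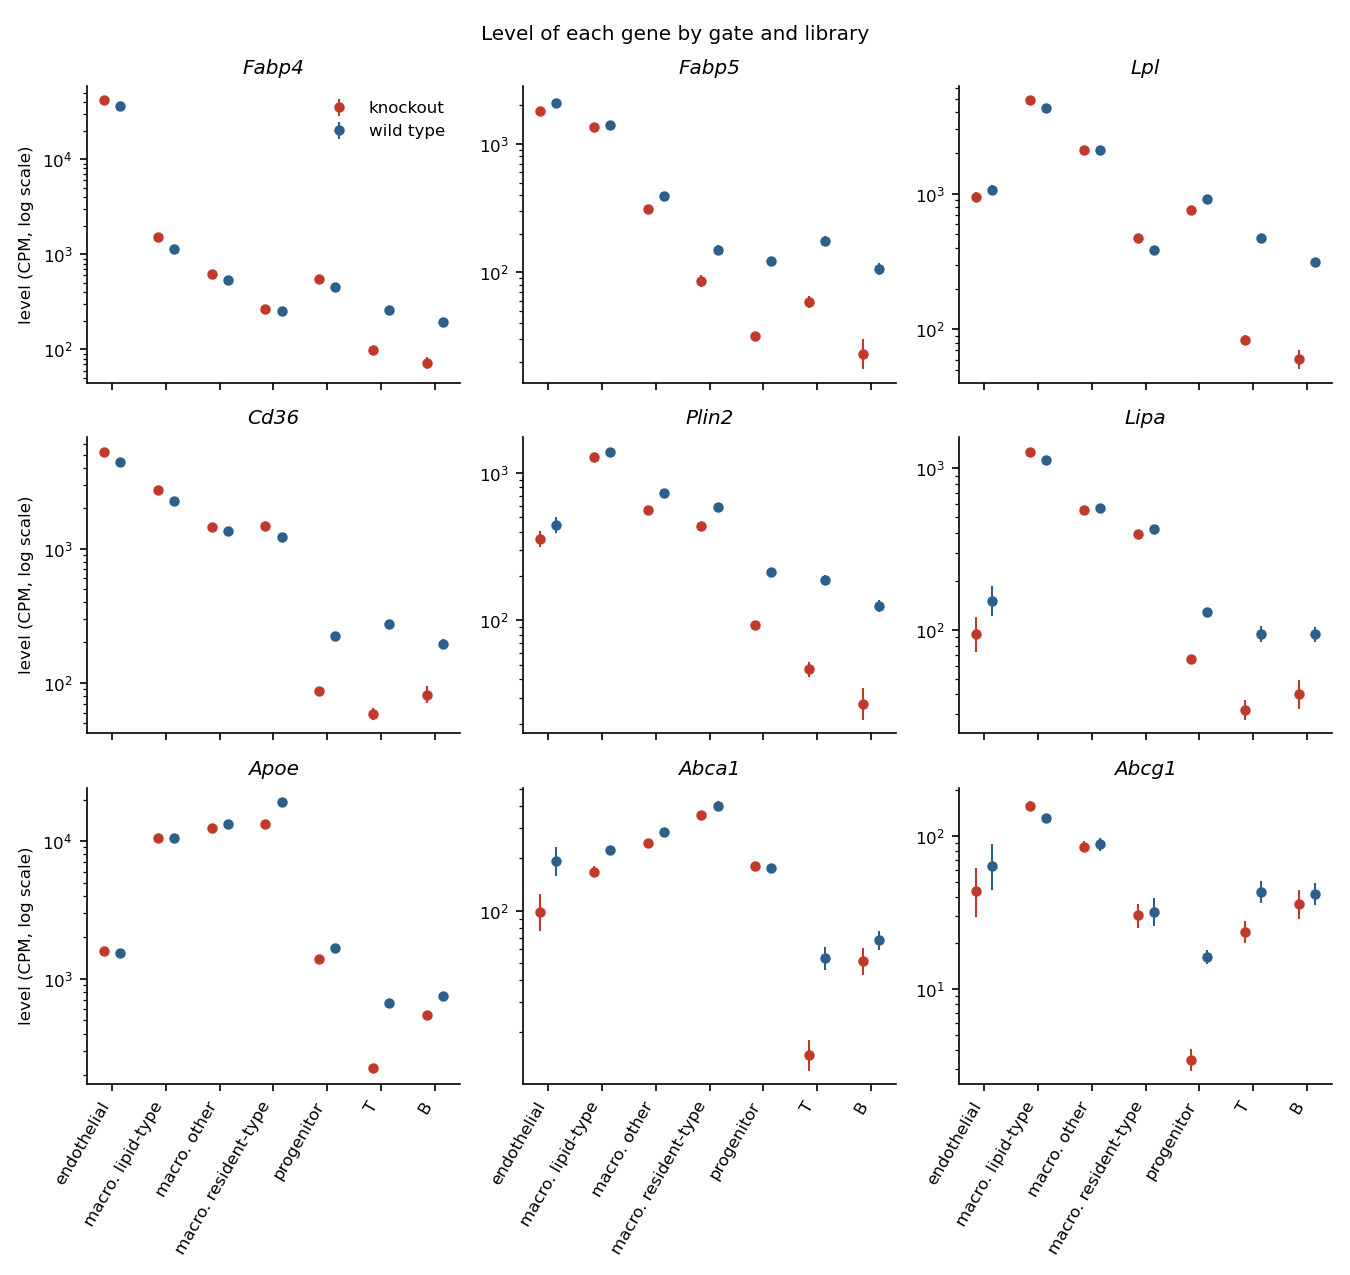
Level of each gene in CPM (log scale) in the endothelial gate, the 3 macrophage sub-gates, the progenitor gate and the T and B gates, with the knockout library left of the wild-type library and bars for exact 95% Poisson intervals. Fabp4 is highest in endothelial cells, Abca1 in resident-type macrophages, and wild-type T cells sit above knockout T cells for all 9 genes.

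Lpl encodes lipoprotein lipase, which is made by cells around the capillary and carried to its inner face by GPIHBP1. It was highest in macrophages, at 2465 CPM in the knockout library and 2868 CPM in the wild type. Endothelial cells held 951 and 1069.7 CPM, and progenitors 757 and 913 CPM. Macrophages thus held 3.26 times the progenitor level in the knockout library and 3.14 times in the wild type. T cells held 83.1 CPM in the knockout library and 470.5 CPM in the wild type, so the progenitor level stood 9.10-fold above lymphocytes in the knockout but 1.94-fold in the wild type. Gpihbp1 itself stood at 3076 and 2840 CPM in endothelial cells and at 8.93 and 4.62 CPM in macrophages.

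Cd36 encodes a fatty acid translocase and scavenger receptor. It was highest in endothelial cells, at 5216 CPM in the knockout library and 4438 CPM in the wild type, followed by macrophages at 1831 and 1780.2 CPM. These are endothelial levels 2.85-fold above macrophages in the knockout library and 2.49-fold in the wild type. In progenitors Cd36 stood at 87.1 and 223 CPM, against 58.7 and 275 CPM in T cells and 81.9 and 196 CPM in B cells. That level is within the lymphocyte range or close to it in both libraries and is read as background. The share of cells with a Cd36 UMI, after thinning each cell to 2000 UMIs, gave the same picture: 12.5% of knockout and 35.7% of wild-type progenitors, against 10.8% and 40.7% of T cells (36.5% and 68.3% of progenitors and 26.5% and 68.3% of T cells without thinning).

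Fabp4 encodes the fatty acid binding protein of adipocytes and capillary endothelium, and Fabp5 its close relative of macrophages and skin. Fabp4 reached 42060 CPM in knockout and 36172 CPM in wild-type endothelial cells, 53.5-fold and 46.1-fold above macrophages of the same library. Macrophages held 786 and 784 CPM and progenitors 556 and 451 CPM of Fabp4, with T cells at 99.7 and 262 CPM. Fabp5 was also highest in endothelial cells, at 1823 CPM in the knockout library and 2101 CPM in the wild type, with macrophages at 554 and 857 CPM. In progenitors Fabp5 stood at 31.6 and 122 CPM, below the T gate of the same library at 58.7 and 175 CPM but above the B gate at 23.2 and 106 CPM. Both genes thus had their highest level in endothelial cells, and in progenitors Fabp5 stood within the range of the lymphocyte gates.

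Plin2 encodes the coat protein of lipid droplets in cells other than adipocytes. It stood at 738 CPM in knockout and 1042 CPM in wild-type macrophages, at 355 and 446 CPM in endothelial cells, and at 93.2 and 212 CPM in progenitors, with T cells at 46.6 and 189 CPM. Lipa encodes lysosomal acid lipase, the enzyme that splits cholesteryl ester and triglyceride inside lysosomes. It stood at 716 CPM in knockout and 822 CPM in wild-type macrophages, and no other gate of the 3 passed 94.0 CPM in the knockout or 152 CPM in the wild type. Plin2 and Lipa were thus highest in macrophages, with a lower Plin2 level in endothelial cells that still stood 7.61-fold and 2.36-fold above lymphocytes.

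Apoe encodes apolipoprotein E, which macrophages secrete and load with cholesterol. It reached 12158 CPM in knockout and 12944 CPM in wild-type macrophages, against 1395 and 1670.0 CPM in progenitors and 1587 and 1549 CPM in endothelial cells. The endothelial and progenitor levels lay close together: endothelial cells held 1.14 times the progenitor level in the knockout library and 0.927 times in the wild type. Abca1 encodes the transporter that hands cholesterol to lipid-poor apolipoproteins. It was the member with the flattest profile, at 253 and 274 CPM in macrophages and 180.0 and 176 CPM in progenitors, while endothelial cells held 98.2 CPM in the knockout library and 193 CPM in the wild type. Abcg1, which passes cholesterol on to high density lipoprotein, stood at 90.8 and 99.6 CPM in macrophages and 43.5 and 63.7 CPM in endothelial cells. In progenitors it was at 3.46 and 16.2 CPM, below T cells (23.6 and 43.1 CPM) and B cells (36.0 and 41.6 CPM). The 2 transporters therefore parted in progenitors, which held Abca1 above and Abcg1 below lymphocytes in both libraries. Since progenitors lay below both lymphocyte gates, these gates may overstate the free RNA level of Abcg1.

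Conventional dendritic cells, the other myeloid gate (69 cells in each library), held less of every member than macrophages did. The macrophage level was 2.35-fold higher for Abcg1 in the knockout library and 2.03-fold in the wild type, and 39.2-fold and 30.6-fold higher for Apoe. Abca1 stood at 11.2 CPM in knockout and 33.4 CPM in wild-type dendritic cells.

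Macrophages were then split, since lipid-laden and resident macrophages of fat differ in these genes. Lipid-type cells had at least 0.5% of their UMIs from Trem2, Gpnmb, Cd9, Spp1, Mmp12, Lgals3, Atp6v0d2 and Itgax, and under 0.2% from the resident-type markers. They numbered 224 in the knockout library and 733 in the wild type. Resident-type cells had at least 0.3% from Lyve1, Timd4, Folr2, Cd163, F13a1, Cbr2 and Gas6, and under 0.3% from the lipid-type markers. They numbered 343 and 397, and 581 and 848 cells met neither definition. All 9 genes stood at least 2-fold above the higher of the T and B gates in lipid-type cells of both libraries (15.8% of all genes did) and in macrophages of neither type (14.4%). In resident-type cells 5 did, Cd36, Plin2, Lipa, Apoe and Abca1, against 17% of all genes. Of the 9 genes 7 stood at least 1.5-fold higher in lipid-type than in resident-type cells in both libraries, against 12.4% of all genes, and 1, Abca1, stood at least 1.5-fold lower in both, against 14.3%.

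Lpl showed a wide gap, at 4867 CPM in knockout and 4260.4 CPM in wild-type lipid-type cells, against 473 and 384 CPM in resident-type cells. Fabp5 stood at 1352 and 1408 CPM in lipid-type cells and at 85.2 and 149 CPM in resident-type cells, a gap of 15.9-fold in the knockout library and 9.45-fold in the wild type. The Fabp4, Fabp5 and Lpl levels of wild-type resident-type cells (251, 149 and 384 CPM) lay below those of wild-type T cells and are read as background.

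Abcg1 followed the same direction, at 156 CPM in knockout and 131 CPM in wild-type lipid-type cells, against 30.3 and 31.8 CPM in resident-type cells, which is below B cells in both libraries. Lipa was 3.22-fold higher in lipid-type cells in the knockout library and 2.68-fold in the wild type, and Plin2 2.91-fold and 2.37-fold. Cd36 had the smallest gap of the 7, at 1.86-fold and 1.85-fold.

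Abca1 ran the other way, at 168 CPM in knockout and 223 CPM in wild-type lipid-type cells, against 355 and 401 CPM in resident-type cells. Apoe did so too, at 10581 and 10465 CPM in lipid-type cells against 13328 and 19271 CPM in resident-type cells. Its gap was 0.794-fold in the knockout library and 0.543-fold in the wild type. Between these 2 sub-gates Abcg1 thus stood with the uptake and storage genes, and Abca1 and Apoe stood lower in lipid-type cells of both libraries. For Apoe the gap was short of 1.5-fold in the knockout. Abca1 as the single member of 9 called lower is near the 14.3% of all genes.

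Macrophages were also placed in 6 bins by the share of their UMIs from the lipid-type markers, the same markers that define the lipid-type cells. Abca1 again stood opposite to the uptake and storage genes, while Apoe followed no steady direction. Fabp5, Plin2, Lipa and Abcg1 stood higher in each bin than in the bin before in both libraries, as did 2.68% of all genes, and Abca1 stood lower in each, as did 2.5%. Abca1 fell from 349 CPM in the lowest to 137 CPM in the highest bin of knockout macrophages, and from 377 to 197 CPM across the bins of wild-type macrophages. Abcg1 rose from 27.5 to 180 CPM across the bins in the knockout and from 15.1 to 139 CPM in the wild type. Lpl, Cd36 and Fabp4 were also higher at the top than at the bottom in both libraries but with a dip between neighbouring bins of at least 1 library.

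**Figure D2:**
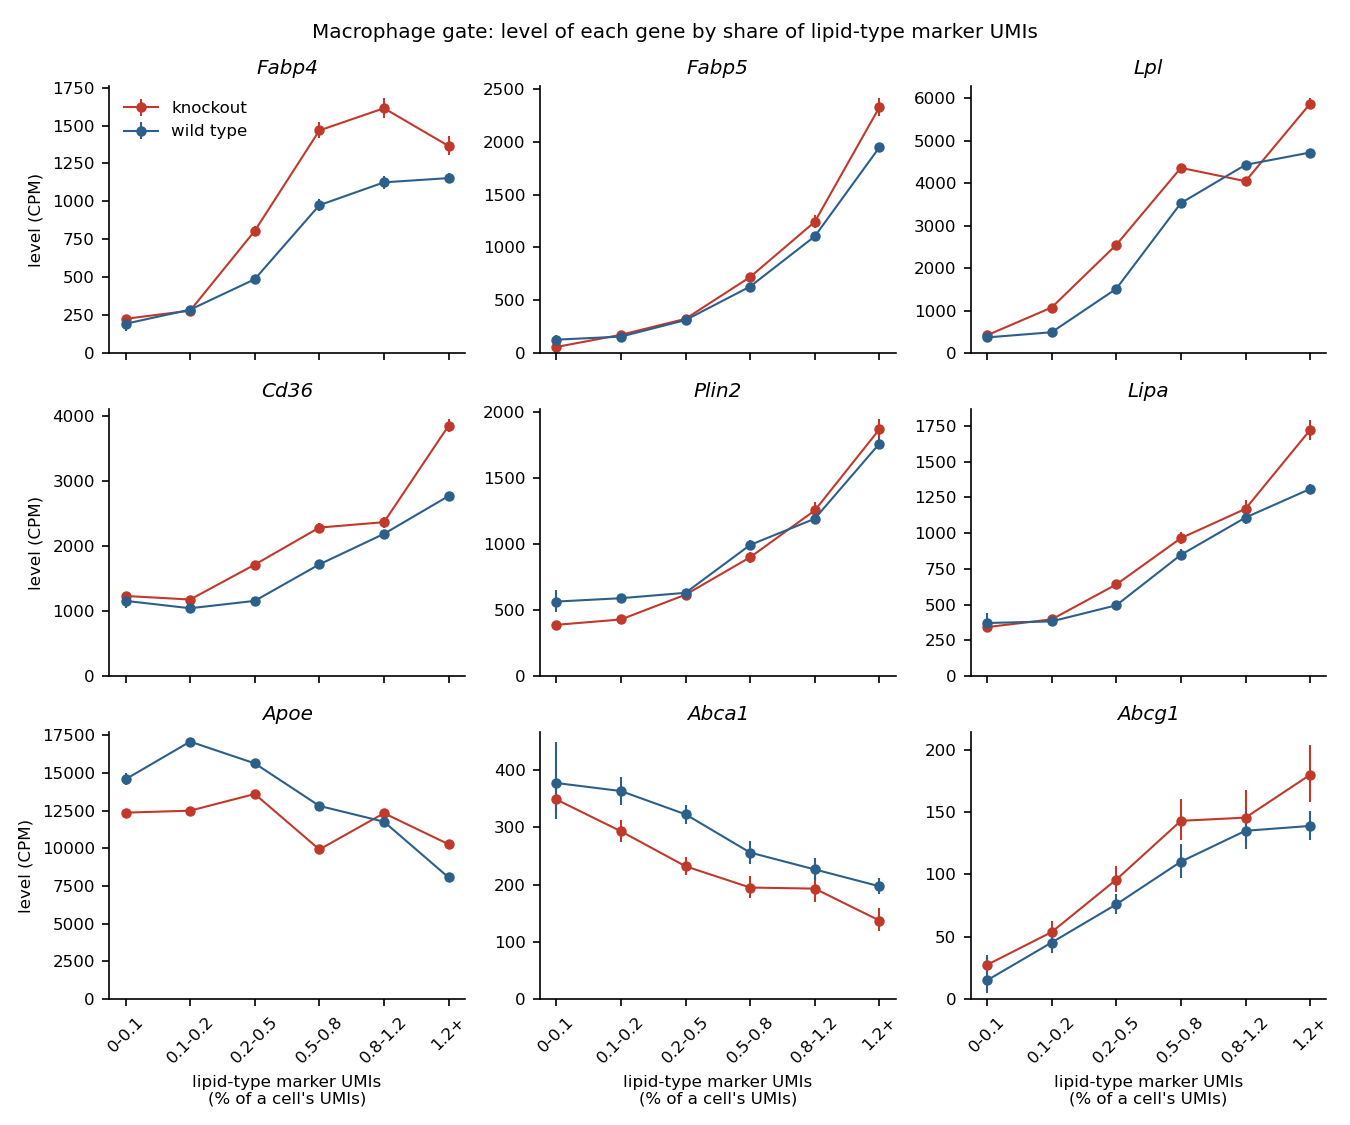
Level of each gene in CPM against the share of a macrophage's UMIs from lipid-type markers, in 6 bins from 0 to over 1.2%, for the knockout and the wild-type library, with exact 95% Poisson intervals. Abca1 falls from 349 to 137 CPM in the knockout and from 377 to 197 CPM in the wild type, while Fabp5, Plin2, Lipa and Abcg1 climb.

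The Abca1 promoter is shown because Abca1 went against the uptake and storage genes in both the sub-gates and the bins. Beside it are windows of Plin2 and Cd36, members that stood higher in lipid-type cells. Apoe also stood lower in lipid-type cells, and its promoter was at hand but is not shown. RefSeq promoters (250 bases before to 50 after the start, GRCm38.p6) were at hand for 5 of the 9 genes, at 7 starts in all. The Abca1 window is chr4:53159916-53160045, the Plin2 windows are chr4:86670240-86670289 and chr4:86670058-86670089, and the Cd36 window is chr5:17836087-17836136, which precedes a start inside the annotated gene. All are on the minus strand and are written 5' to 3' along the gene. Capitals mark an E-box (CACGTG), a nuclear receptor core site (AGGTCA, or TGACCT where it is read on the other strand), a loosened direct repeat (TGACC and, after 5 free bases, TNACC, with free bases left in lower case), and a TATA box (TATAAA).
Abca1: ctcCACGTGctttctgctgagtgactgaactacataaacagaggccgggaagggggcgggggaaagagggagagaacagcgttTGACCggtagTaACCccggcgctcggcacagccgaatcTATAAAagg
Plin2 upstream: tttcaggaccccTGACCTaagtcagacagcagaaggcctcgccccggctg
Plin2 start: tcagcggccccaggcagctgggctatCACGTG
Cd36: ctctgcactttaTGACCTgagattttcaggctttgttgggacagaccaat
Both strands were searched. Of 32851 RefSeq promoters of the same length, 7.15% hold CACGTG, 16.3% AGGTCA, 13.6% TATAAA and 0.207% the loosened repeat. The form of that repeat was chosen after the Abca1 sequence had been read. Strict repeats of AGGTCA, with 1 free base between the copies (0.0396% of promoters) or with 4 (0.0152%), hold AGGTCA within them and had no match in the 7 promoters. Liver X receptors are known to bind a direct repeat near the start of Abca1, and Plin2 is a known target of peroxisome proliferator-activated receptors. A match says only that these letters stand in the window.

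The genotypes were compared next, beginning with the macrophages in which Camk2d was to be deleted. Of the 9 genes 1, Fabp5, was at least 1.5-fold lower in the knockout library, against 4.68% of all genes, and 0 were at least 1.5-fold higher, against 2.8%. The members had a median log2 ratio (knockout over wild type) of -0.13, beside -0.10 for all genes past the low-count limit. Fabp5 stood at 554 CPM in knockout and 857 CPM in wild-type macrophages, a log2 ratio of -0.63 (-0.67 to -0.59), which came to -0.57, short of 1.5-fold, with median-of-ratios or trimmed mean scaling. Plin2 stood at 738 and 1042 CPM, a log2 ratio of -0.50 (-0.53 to -0.46). The other 7 lay between -0.22 for Lpl and 0.04 for Cd36, close to no difference, and the sign of each changed under at least 1 alternative setting.

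The mix of macrophages, as drawn by the fixed sub-gate limits, differed between the libraries. Lipid-type cells gave 29.4% of the gate's UMIs in the knockout library and 50.2% in the wild type. Their 8 markers summed to 4945 and 8445 CPM over the gate. The T-cell background of the same 8 markers was unlike too: 340 CPM (knockout) against 1501 CPM (wild type). The part of free RNA in this mix, and in the weighting by it below, was not tested. The Fabp5 difference was smaller within lipid-type cells, at a log2 ratio of -0.06 (-0.10 to -0.01), than over the whole gate. It was -0.33 (-0.42 to -0.24) in macrophages of neither type and -0.81 (-1.01 to -0.60) in resident-type cells, where the wild-type level was below that of T cells. With the sub-gates of both libraries weighted by the wild-type mix, a choice made after seeing the data, the Fabp5 ratio was -0.11 and 0 members passed 1.5-fold. Under that weighting Fabp4 stood at 0.36, Cd36 at 0.23, Plin2 at -0.21 and Abca1 at -0.28. No member was 1.5-fold apart in lipid-type cells (4.21% of all genes were lower and 2.73% higher) or in macrophages of neither type (6.8% and 2.77%). In resident-type cells 1 was lower, Fabp5, against 9.58% of all genes, and 0 were higher, against 2.82%.

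Within lipid-type cells, Fabp4 stood at 1515 CPM in the knockout library and 1132 CPM in the wild type, a log2 ratio of 0.42 (0.37 to 0.47). Markers of cells rich in Fabp4 were also higher there: the 8 endothelial markers summed to 29.9 CPM in knockout and 10.6 CPM in wild-type lipid-type cells, with 8 of 8 higher in the knockout, and the 6 adipocyte markers to 46.3 and 19.6 CPM, with 5 of 6 higher. Shallow ungated barcodes held 2938 CPM of Fabp4 in the knockout library and 907 CPM in the wild type. By the estimate made from them, free RNA gave 29.7% of the Fabp4 level of knockout and 21.2% of that of wild-type macrophages. The lymphocyte gates ran in the opposite direction between libraries: T cells held 99.7 and 262 CPM and B cells 72.4 and 193 CPM. The free RNA share of Fabp4 thus depends on the background chosen. The part of free RNA and of transcripts from these other cells in the Fabp4 ratio was not tested. Abca1 stood at 168 and 223 CPM in lipid-type cells, a log2 ratio of -0.41 (-0.54 to -0.29). Abca1 thus lay below and Fabp4 above the wild-type level in these cells, both short of 1.5-fold. After thinning to 2000 UMIs, 24.3% of knockout (18.6 to 30.7) and 36.3% of wild-type (32.7 to 40.0) lipid-type cells had an Abca1 UMI, and without thinning 67.9% and 73.1% did (median 16174 and 9607 UMIs). The share in T cells, which mark the background, was 3.73% and 10.7% after thinning and 7.58% and 19.0% before.

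Across the 6 bins, Abca1 was lower in the knockout than in the wild type in every bin, as were 13% of all genes, with log2 ratios from -0.52 to -0.11. Cd36 and Abcg1 were higher in the knockout in every bin, as were 5.99% of all genes, with ratios from 0.09 to 0.57 for Cd36 and from 0.11 to 0.87 for Abcg1. The bins share their libraries and are no replicates. The lowest bin held 309 knockout and 51 wild-type cells, and the 5 Abcg1 UMIs of those wild-type cells set its upper ratio. The 8 lipid-type markers summed to 340 CPM in knockout and 1501 CPM in wild-type T cells, and the part of free RNA in the binning was not tested.

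Lpl differed most in the second bin. It stood at 1072 CPM in knockout and 490 CPM in wild-type macrophages of the second bin and at 2547 and 1513 CPM in the third. The wild-type value in the second bin lay close to wild-type T cells at 470.5 CPM. The knockout was lower in the fifth bin, at 4044 and 4429 CPM, and higher again in the top bin, at 5869 and 4719 CPM. Apoe stood at 12364 and 14575 CPM in the lowest bin and at 10267 and 8066 CPM in the highest, so its direction changed along the bins. Among the 3 macrophage sub-gates Apoe had its widest difference in resident-type cells, at 13328 CPM in the knockout library and 19271 CPM in the wild type (log2 -0.53, -0.55 to -0.51).

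**Figure D3:**
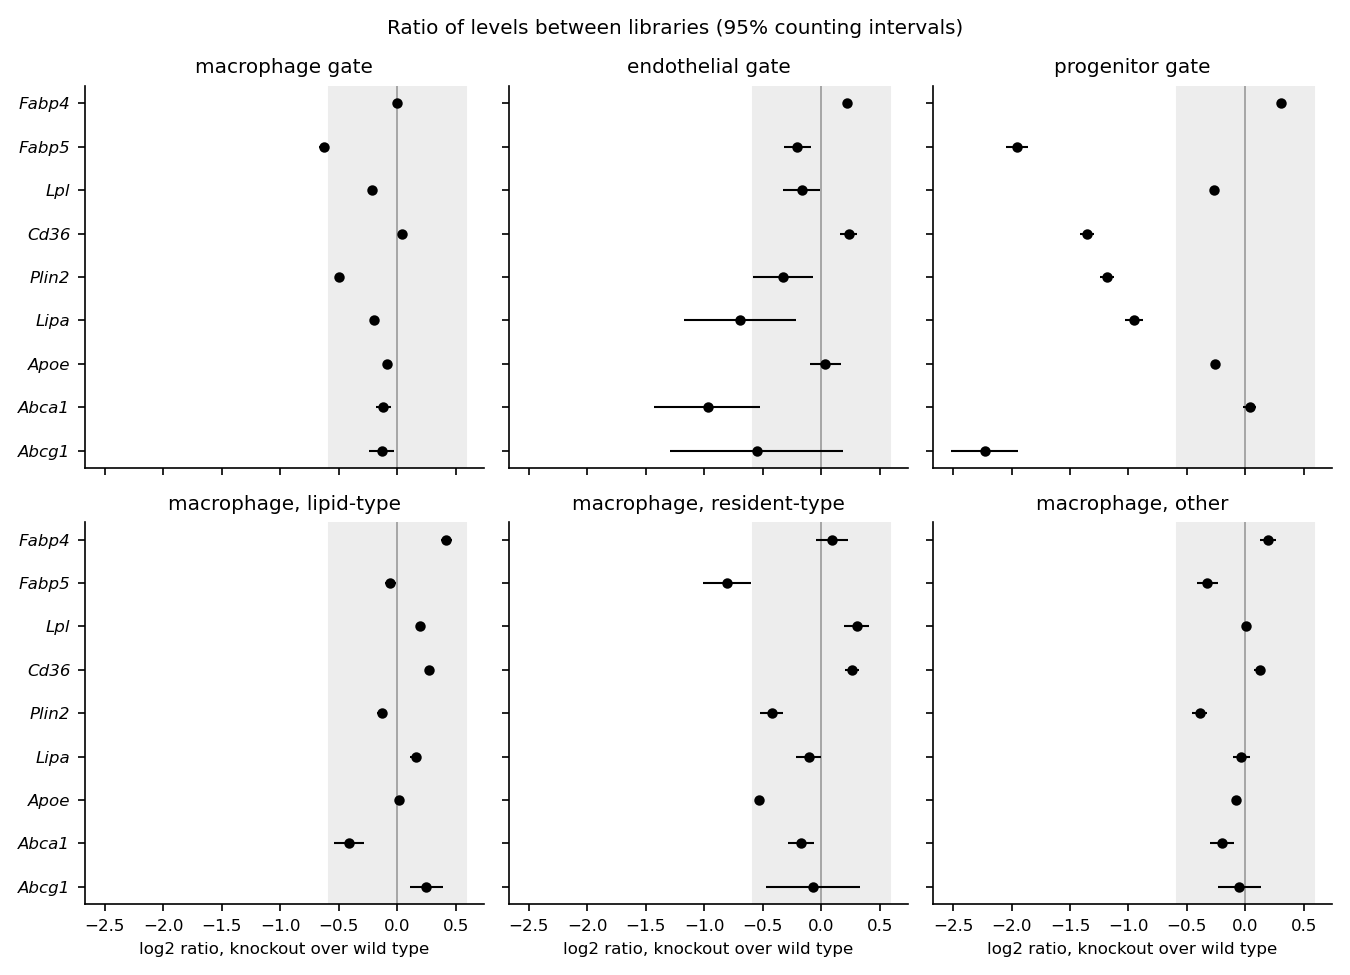
Log2 ratio of knockout over wild type for each gene in the macrophage, endothelial and progenitor gates (top) and in 3 macrophage sub-gates (bottom), with exact 95% counting intervals; the grey band spans 1.5-fold either way. Fabp5 leaves the band in the macrophage gate but not in lipid-type cells, and Abcg1 in progenitors lies under the low-count limit.

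In endothelial cells 2 members, Abca1 and Lipa, were at least 1.5-fold lower in the knockout, against 8.9% of all genes, and 0 were higher, against 7.51%. The members' median log2 ratio was -0.20, beside -0.04 for all genes. Abca1 stood at 98.2 CPM (70 UMIs) in the knockout library and 193 CPM (109 UMIs) in the wild type, a log2 ratio of -0.97 (-1.43 to -0.53). Lipa stood at 94.0 CPM (67 UMIs) and 152 CPM (86 UMIs), a ratio of -0.69 (-1.18 to -0.22). Each of the 2 rests on 91 knockout and 92 wild-type cells and on few UMIs. Lipa was also only 2.34-fold and 1.61-fold above the higher lymphocyte gate, and an estimated 19.8% of its knockout and 42.4% of its wild-type endothelial level came from free RNA. Gating on thinned counts or subtracting free RNA left Abca1 as the single member past 1.5-fold.

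Markers of other cells differed between the endothelial gates. The 4 lymphatic markers summed to 49.1 CPM in the knockout, with 3 of them at 0, and to 573 CPM in the wild type, where 4 cells carried 2 or more of them and the knockout had 0 such cells. Without those cells, chosen after seeing the data, Abca1 stood at -0.96 and Lipa at -0.64. The 6 adipocyte markers summed to 355 CPM in the knockout library and 81.3 CPM in the wild type, and all 6 were higher in the knockout. Adipocytes are rich in Fabp4, Cd36 and Lpl, and the part of these transcripts in the endothelial values was not tested. Markers of macrophages, which hold Abca1 and Lipa, and of progenitors, which hold Abca1, were lower in the knockout endothelial gate. The 8 macrophage markers summed to 310.1 CPM in the knockout library and 619 CPM in the wild type, the 8 lipid-type markers to 297 and 1077 CPM, and the 8 progenitor markers to 281 and 799 CPM. In each of these lists 0 of 8 were higher in the knockout and 0 stood at 0, and their part in the Abca1 and Lipa values was not tested. Fabp4 had an endothelial log2 ratio of 0.22 (0.19 to 0.24), Cd36 of 0.23 (0.16 to 0.31), Fabp5 of -0.20 (-0.32 to -0.09) and Plin2 of -0.33 (-0.59 to -0.07). The intervals of Apoe (-0.09 to 0.16) and Abcg1 (-1.29 to 0.18) spanned 0.

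In progenitors 4 members, Fabp5, Cd36, Plin2 and Lipa, of 8 past the low-count limit were at least 1.5-fold lower in the knockout, against 7.24% of all genes, and 0 were higher, against 3.41%. Their log2 ratios were -1.96 for Fabp5, -1.35 for Cd36, -1.19 for Plin2 and -0.95 for Lipa. The median over all 9, with Abcg1 (-2.23) under the limit among them, was -0.95. It stands beside -0.09 for all genes past the limit, which is an unlike set. Progenitors held these 4 at 0.538 to 2.0 times the higher lymphocyte gate in the knockout library and at 0.699 to 1.35 times in the wild type, and the same 4 were lower in knockout T cells: the T-cell ratios were -1.58 for Fabp5, -2.23 for Cd36, -2.02 for Plin2 and -1.57 for Lipa. The estimated share of free RNA was 5.44% of the UMIs of knockout and 22.0% of those of wild-type progenitors. By that estimate free RNA gave 54.8% of the Cd36 level in knockout and 92.2% in wild-type progenitors, and 51.3% and 74.3% of the Fabp5 level. With it subtracted, 2 members stayed 1.5-fold lower, Fabp5 (-1.31) and Plin2 (-0.68), Lipa came to -0.39, and Cd36 turned to 0.91. The 8 macrophage markers, none of which stood at 0, summed to 195 CPM in knockout and 697 CPM in wild-type progenitors, with 0 of the 8 higher in the knockout.

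The members that progenitors held at least 2-fold above lymphocytes in both libraries, Apoe and Abca1, differed by less than 1.5-fold over the whole gate. Apoe stood at 1395 CPM in knockout and 1670.0 CPM in wild-type progenitors, a log2 ratio of -0.26 (-0.28 to -0.24). Abca1 stood at 180.0 and 176 CPM, a ratio of 0.04 (-0.02 to 0.09). Thinned to 2000 UMIs, 28.2% and 28.4% of progenitors had an Abca1 UMI, against 3.73% and 10.7% of T cells and 9.92% and 14.7% of B cells (66.0% and 53.5% of progenitors and 7.58% and 19.0% of T cells without thinning). Lpl had a ratio of -0.27 (-0.30 to -0.25) and Fabp4 of 0.30 (0.27 to 0.34), but in the wild type they stood only 1.94-fold and 1.72-fold above lymphocytes. Free RNA gave an estimated 7.13% of the Lpl level in knockout and 37.7% in wild-type progenitors, and 28.7% and 44.3% of the Fabp4 level. For Fabp4 the barcodes behind that estimate held 2938 CPM in the knockout library, against 99.7 CPM in knockout T cells. Fabp4 had a UMI, after thinning, in 47.4% of knockout and 49.6% of wild-type progenitors, against 14.6% and 42.8% of T cells (77.3% and 77.1% of progenitors and 33.2% and 65.4% of T cells without thinning).

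Progenitors were split by Pi16 and Dpp4, markers of the less committed interstitial progenitors. The high cells (at least 0.05% of UMIs from the pair) numbered 721 in the knockout library and 1278 in the wild type, and 2530 and 1598 cells had no UMI of either. Fabp4, Lpl, Cd36, Plin2 and Apoe were at least 1.5-fold higher in cells without the pair in both libraries, 5 of 8 members against 5.88% of all genes, and 0 were lower, against 5.76%. For Cd36 and Plin2 these levels were close to background in the wild type: cells without the pair held 282 CPM of Cd36 and 267 CPM of Plin2, against 275 and 189 CPM in T cells. Apoe stood at 1890 CPM in knockout and 2582 CPM in wild-type cells without the pair, against 381 and 635 CPM in the high cells. Lpl stood at 980 and 1252 CPM without the pair, against 261 and 497 CPM in the high cells. Fabp4 stood at 730 and 669 CPM without the pair, against 125 and 209 CPM in the high cells. Apoe of the high cells was at 0.692 times the higher lymphocyte gate in the knockout and 0.843 times in the wild type. Their Lpl was at 3.14 and 1.06 times, and their Fabp4 at 1.26 and 0.797 times. Apart from Lpl in the knockout, these high-cell levels are near background or below it. In cells without the pair Lpl stood 11.8-fold and 2.66-fold above the higher lymphocyte gate, and Fabp4 7.32-fold and 2.55-fold. Both thus passed the 2-fold mark there in both libraries. Abca1 again ran the other way, at 168 and 137 CPM without the pair and 226 and 234 CPM in the high cells, a gap that passed 1.5-fold only in the wild type (1.71-fold, against 1.34-fold in the knockout). The cells without the pair were shallower (median 9220 UMIs in knockout and 4516 in wild-type cells) than the high cells (11035 and 6789), and the part of depth in this split was not tested. Between libraries, Apoe had a log2 ratio of -0.74 in the high cells, past 1.5-fold, and -0.45 in cells without the pair. Lpl had ratios of -0.93 and -0.35, Fabp4 of -0.74 and 0.13, and Abca1 of -0.05 and 0.29. High cells gave 7491491 of 41663559 progenitor UMIs in the knockout library and 8475934 of 23464499 in the wild type. The part of this mix, and of background, in the whole-gate ratios was not tested.

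The members were also compared by pattern over 20 profiles, 10 gates and sub-gates in each library, on the log2(CPM + 1) scale. The profiles share 2 libraries, so the correlations are descriptions. Plin2 and Lipa had the most similar profiles of the 36 pairs (Pearson r = 0.93), and Abca1 and Abcg1 the least similar (r = 0.16). Abca1 was instead close to Apoe (r = 0.90). Among 9412 genes, the closest to Fabp4 were Bvht (r = 0.96), Gpihbp1 and Ubd, and to Cd36 they were Cd93 (r = 0.96), Plxnd1 and Pik3r6. For Fabp5 they were Efr3b (r = 0.93), Lamtor5 and Nes, and for Lpl Slc6a8 (r = 0.89), Slco2b1 and Plin2. Akr1a1 headed the list of both Plin2 (r = 0.94) and Lipa (r = 0.98), followed by Lipa and Tcirg1 for Plin2 and by Atp6v0c and Tcirg1 for Lipa. Pltp (r = 0.98), Tpp1 and Lamp1 were closest to Apoe, Rab11fip5 (r = 0.94) and Lamp1 were close to Abca1, and Arhgap25 (r = 0.92), Evl and Smarca4 were closest to Abcg1.

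A wider list of 72 other lipid-handling genes gave the setting. In macrophages 50 were past the low-count limit, of which 2 were at least 1.5-fold higher, 1 lower and 47 between, near the 2.8% and 4.68% of all genes, with a median log2 ratio of -0.04 beside -0.10 for all genes. Olr1, the receptor for oxidized low density lipoprotein, stood at 19.4 CPM in knockout and 8.11 CPM in wild-type macrophages (log2 1.26, 0.96 to 1.57). The lower one was Angptl4, a secreted inhibitor of lipoprotein lipase, at 27.0 and 43.0 CPM (-0.67, -0.85 to -0.49). Knockout T cells held 2.19 CPM of Angptl4 and wild-type T cells 13.2 CPM. Next in rank, and short of 1.5-fold, were Ppard (0.43) and Cebpa (0.36) at the top and Dbi (-0.58), Abca7 (-0.51) and Slc27a1 (-0.51) at the bottom. All 9 lysosomal genes, 5 of 5 storage genes and 8 of 8 efflux and lipoprotein genes lay within 1.5-fold, as did most genes of the table.

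**Figure D4:**
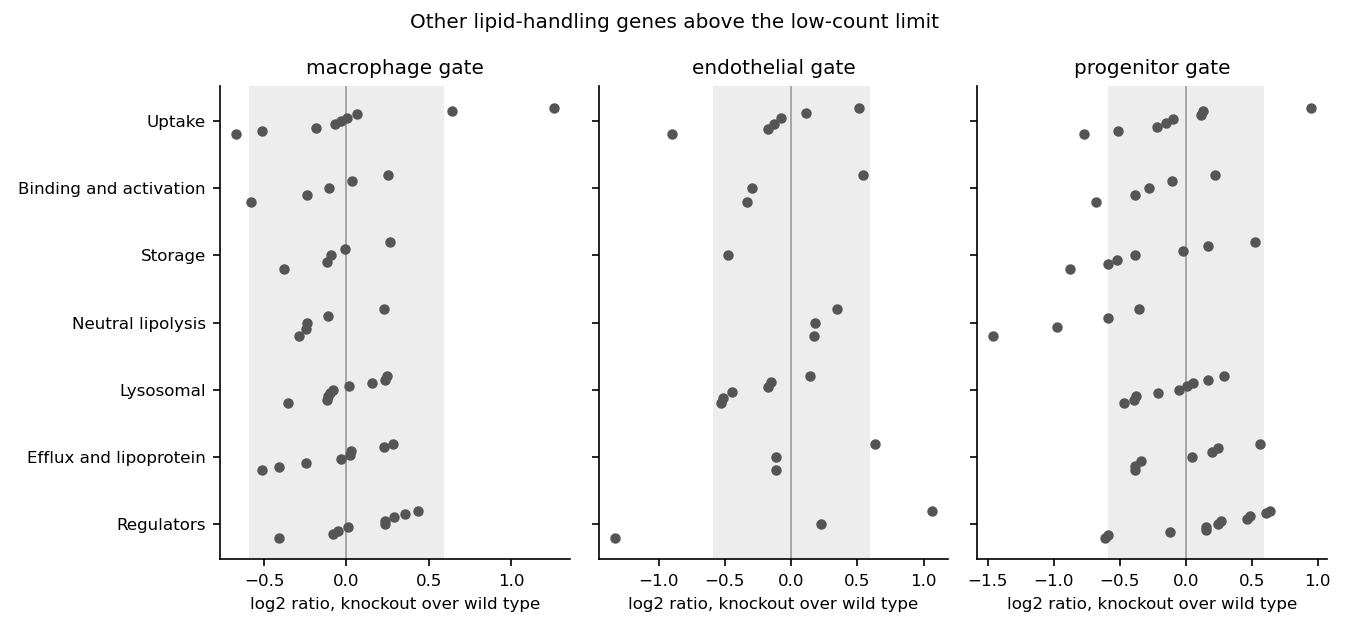
Log2 ratio (knockout over wild type) of the other lipid-handling genes past the low-count limit in 3 gates, by role; each point is a gene and the grey band spans 1.5-fold either way. In macrophages Olr1, at 1.26, lies farthest right of the band and Angptl4, at -0.67, left of it.

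In endothelial cells 25 genes of the wider list were past the limit, 2 at least 1.5-fold higher, 2 lower and 21 between, near the 7.51% and 8.9% of all genes. Scd1, a fatty acid desaturase, stood at 92.6 CPM in the knockout library and 44.2 CPM in the wild type (log2 1.07, 0.38 to 1.79), and Mylip, a ubiquitin ligase induced by liver X receptors, at 414 and 267 CPM (0.63, 0.34 to 0.93). The related desaturase gene Scd2 stood at 39.3 and 99.0 CPM (-1.33, -2.04 to -0.65), and Angptl4 at 180 and 336 CPM (-0.90, -1.24 to -0.57). Acsl1 (0.54), Cav2 (0.52), Lamp2 (-0.53) and Lamp1 (-0.52) followed short of 1.5-fold.

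In progenitors 51 were past the limit, 3 at least 1.5-fold higher, 9 lower and 39 between, beside 3.41% and 7.24% of all genes. Among the higher genes were Hmgcs1, an enzyme of cholesterol synthesis, at 79.4 CPM in the knockout library and 50.9 CPM in the wild type (log2 0.64), and Insig1, which holds back the sterol-regulated transcription factors SREBP, at 49.2 and 32.2 CPM (0.61). Abca8a, a transporter of the same cells, followed at 0.56. Of the 9 lower genes 3 were among 4 of neutral lipolysis and 2 among 7 of storage, while 0 of 9 lysosomal and 0 of 7 efflux and lipoprotein genes differed by 1.5-fold. The 4 lowest were Mgll, the monoglyceride lipase, at 23.7 and 65.2 CPM (-1.46), then Nceh1 (-0.97), Hilpda (-0.87) and Slc27a1 (-0.77). Mgll stood at 4.54 CPM in knockout and 19.1 CPM in wild-type T cells, while Nceh1 (23.5 and 41.8 CPM) and Hilpda (69.2 and 79.3 CPM) stood above the progenitor level there. No free RNA estimate was made for these genes, and T cells' own transcripts and free RNA cannot be told apart in these levels. Slc27a1, a fatty acid transport protein, stood at 15.2 and 25.9 CPM in progenitors and at 5.01 and 22.4 CPM in T cells.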

How the data were processed

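Per the labels' protocols, digested adipose tissue was freed of adipocytes and red cells, loaded on a 10x Genomics 3' platform and sequenced on a NovaSeq 6000. Cell Ranger 5.0.0, Seurat 4.1.1 and the build mm10 are given per the submitters' processing notes. The deposited files hold UMI counts per gene and barcode for each library, and these counts were used as they are. The knockout library totalled 87015918 UMIs and the wild-type library 75436677, and the UMIs of a gate set the width of its intervals.

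Barcodes with at least 500 UMIs, 200 genes and at most 20% mitochondrial UMIs passed. Scrublet scores above 0.25 were removed as doublets (435 knockout and 478 wild-type barcodes), leaving 9200 and 14854. The lowest barcode of the deposited counts held 500 UMIs in the knockout library but 1276 in the wild type. A gate needs 3 of its own markers, a share of UMIs from them (0.6% for macrophages and progenitors, 0.2% for endothelial, T and B cells) and little from other lists. These limits were set after the marker distributions were seen, and 7192 and 7553 cells fell in a gate. The share of free RNA in a gate was estimated from ungated barcodes under 2000 UMIs. It is the median, over markers of other cell types, of their level in the gate over their level in those barcodes. Markers with at least 20 CPM in those barcodes were used. There were 969 such barcodes in the knockout library (median 852 UMIs) and 3716 in the wild type (median 1521 UMIs). The part of this unlike depth in the estimates was not tested.

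Levels are UMIs summed per gate and library as CPM, with exact Poisson intervals; ratios have exact conditional intervals and shares Clopper-Pearson intervals. Shares were taken after thinning each cell to 2000 UMIs and leaving out shallower cells (404 of 4306 knockout and 490 of 3861 wild-type progenitors). Called means 1.5-fold at a mean of 10 CPM and 30 UMIs in the higher library. Python 3.11.15, numpy 2.4.6, scipy 1.17.1 and scanpy 1.11.5 were used. The level, ratio and call steps were tested on summed counts simulated with Poisson error and known folds. Gating, doublet removal, thinning, the free RNA estimate and variation between libraries were not simulated. Genes named are the 9 members, the 4 highest and 4 lowest of the wider list in each gate and the 3 closest patterns per member; Gpihbp1 was picked after its values were seen, and some genes that the rule names are not reported here. Members and lists were chosen with earlier results of these data known. Alternatives were other scalings, filters, gates, floors and folds, clusters, sub-gate weights and free RNA subtraction.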

Additional observations from a re-analysis of the deposited data

Results flagged for a closer look

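Cd36 pointed in different directions in different cell types. Its log2 ratio of knockout over wild type was 0.233 in endothelial cells and 0.041 in macrophages, where the counting intervals lay above 0, and -1.355 in progenitors. The difference between cell types was not tested. In progenitors Cd36 was near its level in T and B cells of the same library, and the sign turns when free RNA is subtracted. That subtraction rests on shallow barcodes whose depth differed between the libraries.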

How the results depend on the processing

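No paired analysis was possible because each genotype is 1 library. In macrophages the single lower member, Fabp5, gave a count of 0 under median-of-ratios scaling (Fabp5 at -0.57), trimmed mean scaling (-0.57), a fold of 2, equal weight of the sub-gates (-0.16) and the wild-type mix of sub-gates (-0.11, a setting chosen after seeing the data, as were gating only cells of 2000 UMIs or more and leaving out lymphatic-marked cells), and the count was 2, Fabp5 and Plin2, with clusters in place of gates. The ratio of Fabp5 ran from -0.80 to -0.11 over all settings. The 7 macrophage ratios other than those of Fabp5 and Plin2 crossed 0 between settings, such as Fabp4 (-0.33 to 0.36) and Lpl (-0.32 to 0.15), as did Lpl and Apoe in endothelial cells and Lpl and Abca1 in progenitors. In endothelial cells the count of 2 lower members was 1 (Abca1) when cells were gated on thinned counts or free RNA was subtracted, and 0 at a fold of 2; Abca1 ran from -1.31 to -0.62 and Lipa from -0.91 to -0.23. In progenitors subtracting free RNA gave 2 lower members in place of 4 and 1 higher member in place of 0, Cd36, whose ratio turned from -1.35 to 0.91. Scaling moved all macrophage ratios by 0.06, the cause of the other moves was not tested, and the directions of the other called members were kept in every setting run. Clusters gave no endothelial value, since no cluster was made up mostly of gated endothelial cells. The 91 and 92 endothelial cells and the free RNA of the wild-type library limit what low levels can show.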
